A study of Mus musculus with 29 samples.

Results

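The 34 genes described here form a hypoxia response and glycolysis set, and they were followed through 29 RNA-seq libraries of mouse small intestine, tumors and intestinal organoids. The genes were selected on their expression in these libraries: fold changes against control that were negative in organoids lacking H2B and p53, and mostly positive in intestinal tissue and tumors of mice with the same deletions, led to the set, whose members were then found by gene symbol. All 34 genes were found, out of 47357 gene IDs shared by the count files. They fall into 7 roles: 8 genes of oxygen sensing and signalling, 4 secreted and surface factors, 3 genes of protein folding and collagen hydroxylation, 5 genes of glucose uptake and phosphorylation, 4 genes of the phosphofructokinase step, 8 genes of lower glycolysis and 2 genes of pyruvate fate. Because the contrasts that involve H2Bp53dIEC organoids, adjacent tissue and tumors led to this choice, they are given as descriptions without p-values. A gene called higher or lower in them passed a threshold of the fit, and nothing is read from such counts. The same holds for H2BdIEC organoids, since the same H2BdIEC and control organoids entered the choice. H2BdIEC crypts are separate from these libraries and were tested against control crypts. The crypts belong to the same data, earlier results of which were known when the genes and lists were chosen.

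Hypoxia-inducible factors are transcription factors whose alpha subunits are hydroxylated by oxygen-dependent prolyl hydroxylases of the Egln family and then destroyed through the von Hippel-Lindau protein. When oxygen is scarce the alpha subunits persist, pair with Arnt and bind short DNA elements near genes of glucose uptake, glycolysis, blood vessel growth, pH control and mitochondrial turnover. In the intestine, epithelial cells lie along a steep oxygen gradient between the blood-supplied crypts and the lumen, and epithelial hypoxia-inducible factor signalling is known from barrier maintenance and from tumors. Several members, among them the glycolytic enzymes, also respond to other regulators and to growth.

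The study compared mice and organoids in which floxed genes were removed from intestinal epithelial cells, a state the labels write as dIEC. H2B is taken here as Rnaseh2b, the gene of a subunit of the ribonuclease that starts ribonucleotide excision repair, and p53 as Trp53. The organoid libraries were 3 H2Bp53dIEC (genotype H2B/p53dIEC), 3 H2BdIEC and 3 control libraries (genotype H2B/p53flox/flox, titled WT). The tissue libraries were 4 tumors and 4 pieces of adjacent tissue, each pair from 1 of 4 mice of genotype H2B/p53dIEC, and 4 pieces of control tissue from H2B/p53flox/flox mice, which the labels also call adjacent normal tissue. The crypt libraries were 4 H2BdIEC and 4 control (H2B flox/flox) preparations of small intestinal crypts from mice aged 52 weeks. All mice were C57BL/6. The Cre driver and the ages for tissue and organoids were not given in the sources used here. Titles of the control and H2BdIEC organoids share a prefix and letters that those of the H2Bp53dIEC organoids lack. The labels do not say what this difference marks, so genotype cannot be told apart from it in contrasts with H2Bp53dIEC organoids. The labels do not tie organoid libraries to separate mice, so their spread may be technical. Tumor and tissue values are given by mouse in the order 1349, 1323, 1322 and 1319, and control tissue in the order 1315, 1316, 1320 and 1321.

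Levels are given as CPM, read counts scaled by library size, within organoids, tissue and crypts separately. Gene counts summed to 15545059 to 25913155 per crypt library, 5774771 to 21386586 per organoid library and 21884287 to 41504298 per tissue library, except control tissue 1320 with 401365. Rnaseh2b averaged 1.65 ± 0.539 CPM in H2Bp53dIEC organoids and 5.83 ± 1.08 CPM in H2BdIEC organoids, against 16.6 ± 1.75 CPM in control organoids (SD, n = 3 each). Trp53 averaged 11.1 ± 0.956 CPM in H2Bp53dIEC organoids, against 95.7 ± 16.1 CPM in H2BdIEC and 107 ± 8.54 CPM in control organoids. In tissue, Rnaseh2b averaged 4.39 ± 1.61 CPM in tumors and 4.12 ± 1.23 CPM in adjacent tissue, against 16.1 ± 5.34 CPM in control tissue, and Trp53 averaged 19.8 ± 7.69 CPM in tumors and 21.3 ± 6.07 CPM in adjacent tissue, against 44.8 ± 4.32 CPM in control tissue (SD, n = 4 each). In crypts Rnaseh2b averaged 2.505 ± 0.274 CPM in H2BdIEC, against 10.6 ± 4.02 CPM in control (SD, n = 4 each). Epithelial markers such as Epcam and Vil1 were present in every group, with sums over 10 markers of 6947 to 7290 CPM in H2Bp53dIEC organoids, against 7319 to 7719 CPM in H2BdIEC and 7283 to 7610 CPM in control organoids. In tissue the sums were 6683 to 10980 CPM in tumors and 14290 to 22760 CPM in adjacent tissue, against 19160 to 22620 CPM in control tissue.

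Per kilobase of exon, the most abundant members in organoids were Aldoa, Ldha and Tpi1. In H2Bp53dIEC organoids their levels were 535 ± 24.1, 492 ± 5.67 and 312 ± 0.915 CPM per kb (SD, n = 3), against 1088 ± 86.8, 718 ± 15.7 and 449 ± 3.75 CPM per kb in control organoids. In tumors Ldha led with 419 ± 84.6 CPM per kb, followed by Aldoa with 359 ± 74.6 and Tpi1 with 283 ± 80.2 CPM per kb (SD, n = 4), and these neighbours did not differ beyond their spread. Ldha also led in both crypt groups, with 344 ± 60.8 CPM per kb in H2BdIEC crypts and 292 ± 55.1 CPM per kb in control crypts (SD, n = 4 each). Levels are not compared between organoids, tissue and crypts, because near-identical copies took up to 90.19% of a member's summed counts in organoids and at most 6.68% in the other sets.

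**Figure D1:**
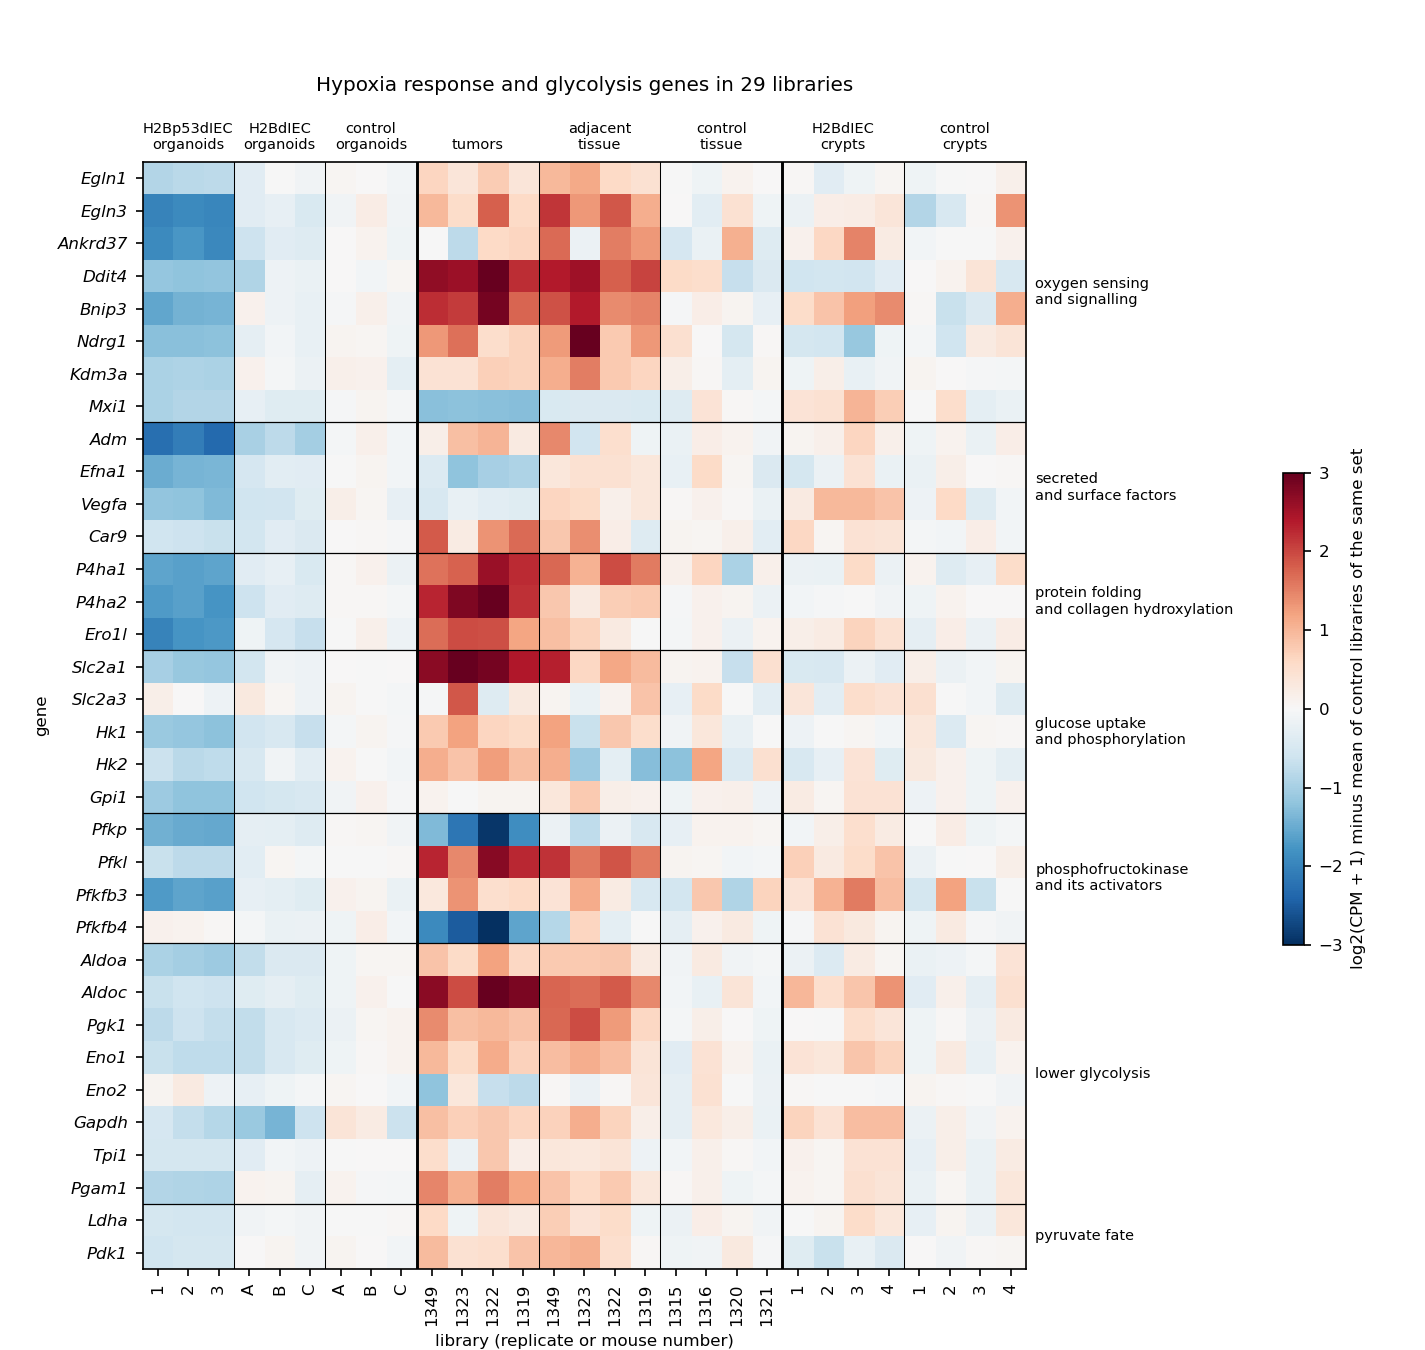
Each cell gives log2(CPM + 1) of a gene in a library minus the mean of the control libraries of the same set, with genes in rows by role and the 29 libraries in columns. Colours end at -3 and 3 on the log2 scale. The H2Bp53dIEC organoid columns are blue for nearly every gene, whereas the tumor and adjacent tissue columns are red for most, with Mxi1 and, in tumors, Pfkp, Pfkfb4 and Efna1 among the exceptions.

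In H2Bp53dIEC organoids the set was low almost throughout. Of the 32 members with enough counts in organoids, 31 were called lower and 0 higher against control organoids, where called means a Benjamini-Hochberg adjusted p under 0.05 in edgeR. Over all genes tested in that contrast 16.6% were called lower and 16.7% higher. The members' median log2 fold change was -1.07, beside -0.004 over all genes. Against H2BdIEC organoids 27 of 32 were called lower and 0 higher, with 15.4% and 13.9% of all genes, and the median was -0.71 beside 0.004. Every H2Bp53dIEC library lay below every H2BdIEC and every control library in 28 of 32 members, a pattern found in 17% of all genes; against each group alone this held for 28 and 30 members, with 22.7% and 27.3% of all genes. In 20 of the 32, the H2BdIEC libraries also all lay below the control libraries, a pattern found in 2.19% of all genes. Slc2a3, a glucose transporter, and Eno2, the neuronal enolase, were too low in organoids to be tested, at no more than 0.355 and 0.431 CPM in any library.

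The promoters of 6 members are shown as the places where the hypoxia-responsive element would be sought: the 5 with the lowest fold change of H2Bp53dIEC against H2BdIEC organoids, and Pfkfb4, which was not lower. Each is the 250 bases upstream of the RefSeq transcript start (GRCm38.p6), 5′ to 3′ on the gene's strand, and the capitals mark matches to the core letters ACGTG or GCGTG on either strand, with overlapping matches merged.
Egln3, chr12:54203875-54204124 (- strand): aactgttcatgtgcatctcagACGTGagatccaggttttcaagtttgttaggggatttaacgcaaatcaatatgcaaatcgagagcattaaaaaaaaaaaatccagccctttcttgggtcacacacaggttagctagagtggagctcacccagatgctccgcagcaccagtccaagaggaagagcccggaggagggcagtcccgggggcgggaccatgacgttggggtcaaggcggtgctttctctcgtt
Ankrd37, chr8:45999851-46000100 (- strand): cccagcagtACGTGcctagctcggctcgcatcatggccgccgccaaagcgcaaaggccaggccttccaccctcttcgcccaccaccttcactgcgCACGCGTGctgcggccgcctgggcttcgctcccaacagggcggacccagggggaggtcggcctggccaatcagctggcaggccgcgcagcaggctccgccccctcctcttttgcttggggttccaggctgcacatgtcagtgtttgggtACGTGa
Adm, chr7:110627407-110627656 (+ strand): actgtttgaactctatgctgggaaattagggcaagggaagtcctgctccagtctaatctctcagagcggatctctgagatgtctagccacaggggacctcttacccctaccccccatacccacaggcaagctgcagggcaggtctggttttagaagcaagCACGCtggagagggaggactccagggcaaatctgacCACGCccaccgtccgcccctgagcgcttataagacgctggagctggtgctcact
Ero1l, chr14:45318573-45318822 (- strand): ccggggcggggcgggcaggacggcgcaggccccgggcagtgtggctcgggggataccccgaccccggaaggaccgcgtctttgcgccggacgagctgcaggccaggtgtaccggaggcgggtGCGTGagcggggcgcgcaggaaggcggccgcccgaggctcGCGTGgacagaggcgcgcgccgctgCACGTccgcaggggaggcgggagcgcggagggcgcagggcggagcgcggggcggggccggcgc
Bnip3, chr7:138909507-138909756 (- strand): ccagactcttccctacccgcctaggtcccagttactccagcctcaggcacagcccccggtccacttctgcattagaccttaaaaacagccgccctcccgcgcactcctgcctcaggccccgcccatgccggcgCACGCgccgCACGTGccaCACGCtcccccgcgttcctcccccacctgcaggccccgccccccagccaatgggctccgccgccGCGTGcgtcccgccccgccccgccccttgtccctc
Pfkfb4, chr9:108991652-108991901 (+ strand): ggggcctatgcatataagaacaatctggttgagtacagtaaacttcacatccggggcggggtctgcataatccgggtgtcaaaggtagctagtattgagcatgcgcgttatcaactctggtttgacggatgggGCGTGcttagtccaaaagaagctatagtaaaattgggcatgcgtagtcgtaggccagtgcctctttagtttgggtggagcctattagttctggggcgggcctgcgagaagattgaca
Bnip3 held 4 such stretches, Ankrd37 and Ero1l 3 each, Adm 2, and Egln3 and Pfkfb4 1 each. Of the 34 members, 32 had a promoter in the RefSeq table, Ero1l under the symbol Ero1a, and 28 of these 32 held at least 1 match in 1 of their promoters. Counted by promoter, 35 of 47 member promoters (74.5%) held a match, beside 12679 of 32851 promoters in all (38.6%). No match was found for Efna1, Eno2, Gpi1 and Tpi1 in this window. A match in these letters is a description of the sequence, and Pfkfb4 shows that the low genes were not the only ones to hold it.

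Among the genes of oxygen sensing and signalling, all 8 were called lower in H2Bp53dIEC organoids, with a median log2 fold change of -1.22 against control organoids. Egln3, a prolyl hydroxylase that marks hypoxia-inducible factor alpha subunits for destruction, had 139, 148 and 144 CPM in H2Bp53dIEC organoids, against 439.5, 473 and 410 CPM in H2BdIEC organoids and 518, 650.3 and 521 CPM in control organoids. The 3 groups did not overlap, and H2Bp53dIEC was lowest. Its log2 fold change was -1.62 ± 0.10 against H2BdIEC organoids and -1.97 ± 0.10 against control organoids, where ± after a fold change is the standard error of the fit. Ankrd37, an ankyrin repeat gene induced by hypoxia, had 17.8, 20.1 and 17.5 CPM in H2Bp53dIEC organoids, against 44.9, 54.8 and 53.2 CPM in H2BdIEC organoids and 69.9, 75.3 and 63.97 CPM in control organoids. No libraries overlapped between groups, and the log2 fold change was -1.47 ± 0.10 against H2BdIEC organoids and -1.92 ± 0.10 against control organoids. Bnip3, a mitochondrial outer membrane protein of mitophagy, had 36.9, 40.8 and 41.4 CPM in H2Bp53dIEC organoids, against 121, 98.03 and 93.96 CPM in H2BdIEC organoids and 107, 122 and 102 CPM in control organoids. Here H2BdIEC and control libraries overlapped and H2Bp53dIEC libraries stood apart below both, at -1.39 ± 0.10 against H2BdIEC organoids and -1.47 ± 0.10 against control organoids. The Bnip3 pseudogenes held 37.1% of the summed counts in organoids, and with them the fold change was -1.48 against control. Ddit4, an inhibitor of mTOR signalling, had 239, 232 and 237 CPM in H2Bp53dIEC organoids, against 286, 487 and 469 CPM in H2BdIEC organoids and 545, 510.4 and 563 CPM in control organoids. H2BdIEC library A was the lowest outside H2Bp53dIEC, and no group overlapped another, with fold changes of -0.82 ± 0.15 against H2BdIEC organoids and -1.19 ± 0.15 against control organoids. Ndrg1, a gene of cell differentiation and stress response, had 553, 557 and 558 CPM in H2Bp53dIEC organoids, against 1096, 1254 and 1134 CPM in H2BdIEC organoids and 1390, 1370 and 1211 CPM in control organoids. The 3 H2Bp53dIEC libraries lay close together and below all others, at -1.06 ± 0.08 against H2BdIEC organoids and -1.25 ± 0.08 against control organoids. Of the others, Egln1, the main prolyl hydroxylase of the pathway, had log2 fold changes of -0.69 ± 0.08 against H2BdIEC organoids and -0.83 ± 0.08 against control organoids, Kdm3a, a histone demethylase, -0.92 ± 0.11 against H2BdIEC organoids and -0.96 ± 0.11 against control organoids, and Mxi1, an antagonist of MYC, -0.58 ± 0.07 against H2BdIEC organoids and -0.91 ± 0.07 against control organoids.

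All 4 secreted and surface factors were lower in H2Bp53dIEC than in control organoids by the same call. Adm, the vasodilator peptide adrenomedullin, had 7.32, 8.50 and 6.99 CPM in H2Bp53dIEC organoids, against 19.5, 22.4 and 18.8 CPM in H2BdIEC organoids and 37.5, 43.5 and 36.6 CPM in control organoids. The groups formed 3 separate steps, at -1.41 ± 0.12 against H2BdIEC organoids and -2.36 ± 0.12 against control organoids, and this was the lowest fold change against control among the members. Efna1, a membrane-bound ephrin ligand, had 72.2, 77.2 and 77.5 CPM in H2Bp53dIEC organoids, against 144, 162 and 159.8 CPM in H2BdIEC organoids and 203, 215 and 193 CPM in control organoids. Again no libraries overlapped, and the fold change was -1.04 ± 0.07 against H2BdIEC organoids and -1.43 ± 0.07 against control organoids. Vegfa, the growth factor of blood vessels, had 124, 121 and 112 CPM in H2Bp53dIEC organoids, against 187, 188 and 218 CPM in H2BdIEC organoids and 318, 294 and 238 CPM in control organoids. Steps without overlap were seen here too, at -0.74 ± 0.10 against H2BdIEC organoids and -1.25 ± 0.10 against control organoids. Car9, a carbonic anhydrase of the cell surface that regulates pH, had 306, 306 and 293 CPM in H2Bp53dIEC organoids, against 316, 368 and 349 CPM in H2BdIEC organoids and 468, 481 and 453 CPM in control organoids. The step between H2Bp53dIEC and H2BdIEC organoids was small, at -0.19 ± 0.07, and that to control organoids was -0.63 ± 0.07. It is the one member of this role that was not called against H2BdIEC organoids.

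The 3 genes of protein folding and collagen hydroxylation had a median log2 fold change of -1.76 against control organoids. Ero1l, the oxidase that renews disulfide formation in the endoplasmic reticulum, had 252, 296 and 306 CPM in H2Bp53dIEC organoids, against 927, 706 and 629.8 CPM in H2BdIEC organoids and 1005, 1121 and 914 CPM in control organoids. H2BdIEC library A reached into the control range, and H2Bp53dIEC stood well below, at -1.41 ± 0.13 against H2BdIEC organoids and -1.83 ± 0.13 against control organoids. P4ha1, a catalytic subunit of collagen prolyl hydroxylase, had 37.8, 36.9 and 37.8 CPM in H2Bp53dIEC organoids, against 91.6, 97.3 and 84.5 CPM in H2BdIEC organoids and 118, 128 and 103 CPM in control organoids. The 3 groups were separate, at -1.28 ± 0.09 against H2BdIEC organoids and -1.63 ± 0.09 against control organoids. P4ha2, the related catalytic subunit, had 15.8, 16.8 and 14.99 CPM in H2Bp53dIEC organoids, against 34.6, 42.2 and 41.1 CPM in H2BdIEC organoids and 54.7, 54.7 and 51.6 CPM in control organoids. It followed the same order without overlap, at -1.32 ± 0.09 against H2BdIEC organoids and -1.76 ± 0.09 against control organoids.

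All 4 measurable genes of glucose uptake and phosphorylation were called lower against both other organoid groups. Slc2a1, the glucose transporter of most cells, had 98.7, 89.3 and 87.7 CPM in H2Bp53dIEC organoids, against 134, 184 and 177 CPM in H2BdIEC organoids and 199, 197 and 198 CPM in control organoids. Control libraries differed by little and lay above all others, and the fold change was -0.85 ± 0.10 against H2BdIEC organoids and -1.11 ± 0.10 against control organoids. Hk1, a hexokinase, had 46.99, 45.8 and 43.7 CPM in H2Bp53dIEC organoids, against 69.4, 73.3 and 63.5 CPM in H2BdIEC organoids and 99.8, 109 and 102 CPM in control organoids. Its groups did not overlap, at -0.59 ± 0.08 against H2BdIEC organoids and -1.19 ± 0.07 against control organoids. Gpi1, glucose phosphate isomerase, had 749, 691 and 685 CPM in H2Bp53dIEC organoids, against 1048, 1103 and 1142 CPM in H2BdIEC organoids and 1475, 1748 and 1561 CPM in control organoids. No overlap was seen, at -0.63 ± 0.08 against H2BdIEC organoids and -1.17 ± 0.08 against control organoids, although a pseudogene held 46.6% of the summed counts in organoids. With that copy added, the Gpi1 fold change against control was -1.15. Hk2, the inducible hexokinase, had -0.45 ± 0.09 against H2BdIEC organoids and -0.75 ± 0.09 against control organoids.

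At the phosphofructokinase step, 3 of 4 genes were lower and Pfkfb4 was not. Pfkp, the platelet type of phosphofructokinase, had 221, 211 and 208 CPM in H2Bp53dIEC organoids, against 497, 491 and 461 CPM in H2BdIEC organoids and 617, 627 and 561 CPM in control organoids. The groups were in separate steps, at -1.18 ± 0.07 against H2BdIEC organoids and -1.50 ± 0.07 against control organoids. Pfkl, the liver type, had 328, 306 and 302 CPM in H2Bp53dIEC organoids, against 421, 542 and 506 CPM in H2BdIEC organoids and 519, 519 and 535 CPM in control organoids. H2BdIEC and control libraries overlapped, with H2Bp53dIEC below both, at -0.65 ± 0.09 against H2BdIEC organoids and -0.75 ± 0.09 against control organoids. Pfkfb3, which makes the allosteric activator of phosphofructokinase, had 33.95, 36.4 and 35.4 CPM in H2Bp53dIEC organoids, against 94.6, 90.9 and 86.4 CPM in H2BdIEC organoids and 122, 117 and 97.4 CPM in control organoids. All groups were apart, at -1.36 ± 0.09 against H2BdIEC organoids and -1.67 ± 0.09 against control organoids. Pfkfb4, its relative with both kinase and phosphatase activity, had 51.7, 50.6 and 48.7 CPM in H2Bp53dIEC organoids, against 45.3, 41.1 and 41.9 CPM in H2BdIEC organoids and 43, 54.6 and 44.8 CPM in control organoids. All H2Bp53dIEC libraries lay above all H2BdIEC libraries, at 0.24 ± 0.09, and overlapped the control libraries, at 0.08 ± 0.09. It was the one tested member not called lower against control organoids.

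In lower glycolysis, 7 of 8 genes were measurable in organoids, and all 7 were called lower against control organoids, 4 of them against H2BdIEC organoids. Aldoa, the main aldolase, had 1631, 1554 and 1490 CPM in H2Bp53dIEC organoids, against 1882, 2350 and 2331 CPM in H2BdIEC organoids, and averaged 3166 ± 252 CPM in control organoids, the lowest at 2874 CPM (SD, n = 3). Its groups did not overlap, at -0.49 ± 0.09 against H2BdIEC organoids and -1.02 ± 0.09 against control organoids. Aldoc, another aldolase, had 114, 120.5 and 119.5 CPM in H2Bp53dIEC organoids, against 142, 152 and 142 CPM in H2BdIEC organoids and 169, 200.2 and 183 CPM in control organoids. Smaller steps in the same order gave -0.30 ± 0.07 against H2BdIEC organoids and -0.64 ± 0.07 against control organoids. Tpi1, triose phosphate isomerase, had 855, 860 and 859.5 CPM in H2Bp53dIEC organoids, against 984, 1165 and 1114 CPM in H2BdIEC organoids and 1225, 1238 and 1245 CPM in control organoids. H2Bp53dIEC libraries nearly coincided and were lowest, at -0.34 ± 0.07 against H2BdIEC organoids and -0.53 ± 0.07 against control organoids. Pgk1, phosphoglycerate kinase, had 77.8, 87.3 and 81.4 CPM in H2Bp53dIEC organoids, against 80.6, 97.04 and 101 CPM in H2BdIEC organoids and 120.2, 139.9 and 146 CPM in control organoids. H2Bp53dIEC overlapped H2BdIEC, at -0.18 ± 0.10, while control libraries were above both, at -0.72 ± 0.10 for H2Bp53dIEC. Eno1, the general enolase, had 338, 314 and 312 CPM in H2Bp53dIEC organoids, against 320, 385 and 414 CPM in H2BdIEC organoids and 493, 543 and 570.4 CPM in control organoids. The lowest H2BdIEC library lay within the H2Bp53dIEC range, at -0.22 ± 0.09, and against control organoids the fold change was -0.74 ± 0.09. Gapdh, glyceraldehyde phosphate dehydrogenase, had 11.6, 9.91 and 8.87 CPM in H2Bp53dIEC organoids, against 7.28, 5.83 and 10.6 CPM in H2BdIEC organoids and 22.6, 20.3 and 10.5 CPM in control organoids. H2Bp53dIEC overlapped both other groups, at 0.33 ± 0.30 against H2BdIEC organoids and -0.81 ± 0.27 against control organoids. Gapdh has 157 near-identical copies, which held 90.2% of the summed counts in organoids. With the copies added the fold change was -0.41 against H2BdIEC organoids, the opposite sign, and -0.70 against control organoids. Pgam1, phosphoglycerate mutase, had -0.91 ± 0.11 against H2BdIEC organoids and -0.94 ± 0.10 against control organoids.

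The members of pyruvate fate were lower in H2Bp53dIEC organoids by less than most others. Ldha, the lactate dehydrogenase subunit that favours lactate production, had 1648, 1610 and 1627 CPM in H2Bp53dIEC organoids, against 2203, 2301 and 2208 CPM in H2BdIEC organoids and 2346, 2351 and 2438 CPM in control organoids. H2BdIEC libraries lay just below control libraries and H2Bp53dIEC libraries below both, at -0.46 ± 0.06 against H2BdIEC organoids and -0.55 ± 0.06 against control organoids. Pdk1, the kinase that inhibits pyruvate dehydrogenase, had 297, 312 and 311 CPM in H2Bp53dIEC organoids, against 453, 478 and 419 CPM in H2BdIEC organoids and 474, 453 and 427 CPM in control organoids. H2BdIEC and control libraries overlapped, and H2Bp53dIEC libraries were lower than either, at -0.55 ± 0.07 against H2BdIEC organoids and -0.56 ± 0.07 against control organoids. Markers of stem and transit cells moved the other way: their sum over 10 genes was 4017, 3986 and 4078 CPM in H2Bp53dIEC organoids, against 3016, 2861 and 2784 CPM in H2BdIEC and 3203, 3016 and 2908 CPM in control organoids. Its part in the lower levels of the set was not tested. Fibroblast markers summed to 2.02 to 3.08, 0.461 to 2.13 and 1.14 to 1.43 CPM and endothelial markers to 1.80 to 3.20, 0.532 to 1.19 and 1.13 to 1.49 CPM in H2Bp53dIEC, H2BdIEC and control organoids, with Dcn, Cdh5, Emcn and Cldn5 at 0 in all 9 libraries. In bulk RNA, fewer cells of a type and less RNA per cell cannot be told apart. Without the members that have near-identical copies, 21 of 22 were called lower against control and 20 of 22 against H2BdIEC organoids.

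In the intestine of H2B/p53dIEC mice, most members lay higher than in control tissue. In adjacent tissue 9 of 34 members were called higher and 0 lower, where 0.792% and 0.277% of all genes were, and the median log2 fold change was 0.67 beside 0.04 over all genes. In tumors 18 were called higher and 4 lower against control tissue, where 28.6% and 26.1% of all genes were, with a median of 0.76 beside 0.07. The count that was lower is below the share of all genes. Tumors against adjacent tissue gave 5 higher and 6 lower, where 23% and 24% of all genes were. Both of these counts are below the shares of all genes, so the genes are named for their values only. Higher in tumors were P4ha2 (2.28 ± 0.30), Aldoc (1.13 ± 0.24), Slc2a1 (1.48 ± 0.36), Pgam1 (0.67 ± 0.16) and Ero1l (1.23 ± 0.22), and lower were Pfkp (-1.59 ± 0.28), Pfkfb4 (-2.24 ± 0.42), Efna1, Vegfa, Kdm3a (-0.50 ± 0.19) and Mxi1 (-0.82 ± 0.15). Adjacent tissue did not overlap control tissue in 14 members above and 1 below, where 8.22% and 5.88% of all genes did not. Tumors did not overlap control tissue in 20 above and 4 below, where 27.5% and 21.7% did not, nor adjacent tissue in 5 above and 6 below, where 19.6% and 20.6% did not. The 4 below control tissue and both counts against adjacent tissue are under the shares of all genes. Both tissue groups share the 4 control libraries, and these contrasts too were known when the set was chosen. The count of 9 in adjacent tissue was 4 without adjacent tissue 1349 or control 1320, 3 without control 1315 and 0 without control 1316 or 1321, and 16 with DESeq2.

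The tissue groups also differed in markers of gut region and of cell types. Fabp1, Apoa4 and Lct are in both the proximal and the enterocyte list, so region and enterocyte content are not separate measures here. Markers of the proximal small intestine summed to 8117, 1240, 481 and 6645 CPM in tumors and 1395, 44530, 588 and 9058 CPM in adjacent tissue, against 229 to 321 CPM in control tissue. Markers of the distal small intestine summed to 14.2 to 98.02 CPM in tumors and 13270, 761, 11190 and 11150 CPM in adjacent tissue, against 12140 to 18500 CPM in control tissue. Region, enterocyte content and genotype cannot be told apart. Erythroid markers summed to 199 to 359.5 CPM in tumors and 95.7 to 718 CPM in adjacent tissue, against 6.96 to 12.2 CPM in control tissue, and all 6 were called higher in both. Endothelial markers summed to 135 to 356, 132 to 212 and 56.2 to 88.9 CPM and fibroblast markers to 2149 to 13200, 384 to 1169 and 610.2 to 1063 CPM in tumors, adjacent and control tissue. In the same order, myeloid markers summed to 844 to 2788, 147 to 870.5 and 144 to 317 CPM, smooth muscle markers to 283 to 814, 2857 to 4284 and 4296 to 6991 CPM and stem and transit cell markers to 1204 to 1555, 239.7 to 556 and 384 to 515 CPM. Enterocyte markers summed to 542 to 17750 CPM in tumors and 21870 to 111500 CPM in adjacent tissue, against 16420 to 25760 CPM in control tissue. The sum of the epithelial markers, given above, was lower in all tumors than in all control tissue. The mitochondrial share of counts was 0.88 to 1.84% in tumors and 2.17 to 3.68% in adjacent tissue, against 2.34 to 2.92% in control tissue. The part of these measures in the member values was not tested.

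Oxygen sensing and signalling genes were the role with the highest median in adjacent tissue, at 1.59, with 5 of 8 called. Ddit4 had 173, 162, 219 and 127 CPM in tumors and 142, 159, 93.8 and 112 CPM in adjacent tissue, against 40.1, 38.8, 16.1 and 19.3 CPM in control tissue. All libraries of H2B/p53dIEC mice lay above all control libraries, and the log2 fold change against control was 2.49 ± 0.30 in tumors and 2.06 ± 0.29 in adjacent tissue. Bnip3 had 98.02, 90.1, 156 and 70.7 CPM in tumors and 79.3, 109.5, 55.6 and 58.7 CPM in adjacent tissue, against 19.8, 23.4, 21.4 and 16.9 CPM in control tissue. Both groups stood above control without overlap, at 2.36 ± 0.28 in tumors and 1.91 ± 0.28 in adjacent tissue. Egln3 had 107, 80.98, 192 and 82.6 CPM in tumors and 243, 135, 202 and 117 CPM in adjacent tissue, against 55.1, 43.3, 74.9 and 49.4 CPM in control tissue. The lowest tumor library lay just above the highest control library, with fold changes of 1.11 ± 0.32 in tumors and 1.70 ± 0.32 in adjacent tissue. Ankrd37 had 10.9, 5.95, 17.04 and 17.6 CPM in tumors and 37.8, 9.49, 33.5 and 28.3 CPM in adjacent tissue, against 7.42, 9.36, 24.1 and 8.16 CPM in control tissue. Control library 1320, the shallow one, was in the range of adjacent tissue, and the groups overlapped, at 0.39 ± 0.48 in tumors and 1.48 ± 0.49 in adjacent tissue. Ndrg1 had 328, 418, 190.2 and 209.7 CPM in tumors and 323, 1871, 229.9 and 325 CPM in adjacent tissue, against 185, 133, 90.99 and 136 CPM in control tissue. Mouse 1323 stood far above the rest in adjacent tissue, where its enterocyte marker sum was also the highest at 111500 CPM, and the fold change was 1.05 ± 0.59 in tumors and 2.32 ± 0.61 in adjacent tissue. Egln1 had log2 fold changes of 0.56 ± 0.17 in tumors and 0.83 ± 0.17 in adjacent tissue, and Kdm3a 0.54 ± 0.19 in tumors and 1.03 ± 0.20 in adjacent tissue. Mxi1 was the exception, lower in all tumors (56.9 to 59.02 CPM) and in all adjacent tissue (102 to 103 CPM) than in control tissue (106 to 185 CPM), at -1.30 ± 0.15 in tumors and -0.48 ± 0.15 in adjacent tissue.

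The secreted and surface factors went different ways in tumors. Adm had 11.3, 19.5, 21.1 and 12.2 CPM in tumors and 28.8, 6.4, 14.5 and 8.96 CPM in adjacent tissue, against 8.57, 11.6, 10.7 and 9.22 CPM in control tissue. The groups overlapped, at 0.70 ± 0.42 in tumors and 0.57 ± 0.42 in adjacent tissue. Vegfa had 89.6, 107, 100.3 and 97.6 CPM in tumors and 197, 189, 139.8 and 160.5 CPM in adjacent tissue, against 129, 137, 128 and 110 CPM in control tissue. Every tumor lay below every control library and every adjacent piece above, at -0.35 ± 0.14 in tumors and 0.45 ± 0.14 in adjacent tissue, and tumors differed from adjacent tissue by -0.80 ± 0.14. Efna1 had 100.3, 56.9, 66.3 and 69.4 CPM in tumors and 169, 184, 182 and 169 CPM in adjacent tissue, against 115, 199.8, 139 and 98.2 CPM in control tissue. Tumors were below adjacent tissue without overlap, at -1.27 ± 0.23, and tumor 1349 overlapped control tissue, at -0.91 ± 0.23 against control. Car9 had 208, 68.3, 146 and 187 CPM in tumors and 102, 152, 65.6 and 43.95 CPM in adjacent tissue, against 61.1, 59.9, 64.2 and 45.95 CPM in control tissue. All tumors were above all control libraries and adjacent tissue overlapped control, at 1.41 ± 0.39 in tumors and 0.67 ± 0.39 in adjacent tissue.

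Genes of protein folding and collagen hydroxylation were all called higher in tumors, with a median of 1.93. P4ha2 had 28.1, 40.4, 71.3 and 26.6 CPM in tumors and 9.53, 6.24, 9.01 and 9.33 CPM in adjacent tissue, against 4.86, 5.54, 5.35 and 4.28 CPM in control tissue. The 3 groups did not overlap, and the fold change was 3.08 ± 0.33 in tumors and 0.80 ± 0.31 in adjacent tissue. P4ha1 had 37.1, 40.9, 72.1 and 56.8 CPM in tumors and 39.4, 24.02, 46.8 and 34.8 CPM in adjacent tissue, against 12.6, 17.99, 5.35 and 12.6 CPM in control tissue. Tumors and adjacent tissue overlapped each other and lay above control tissue, at 1.93 ± 0.29 in tumors and 1.42 ± 0.29 in adjacent tissue. Ero1l had 186, 227, 225 and 133 CPM in tumors and 109, 92.5, 70.03 and 57.1 CPM in adjacent tissue, against 55.3, 63.5, 50.9 and 62.5 CPM in control tissue. Tumors stood above the other groups, which overlapped, at 1.71 ± 0.23 in tumors and 0.48 ± 0.22 in adjacent tissue. Collagen hydroxylation is also a task of fibroblasts, whose marker sum was highest in tumors; its part here was not tested.

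For glucose uptake, the transporter Slc2a1 stood out. Slc2a1 had 122, 194, 137 and 98.4 CPM in tumors and 94.2, 27.8, 40.95 and 35.4 CPM in adjacent tissue, against 19.1, 19.4, 10.7 and 25.3 CPM in control tissue. Every tumor exceeded every adjacent piece, and every adjacent piece exceeded control, at 2.78 ± 0.39 in tumors and 1.30 ± 0.37 in adjacent tissue. Hk1 had 71.1, 95.6, 64.01 and 60.98 CPM in tumors and 95.5, 25.3, 72.1 and 59.6 CPM in adjacent tissue, against 37.8, 51.9, 34.8 and 40.7 CPM in control tissue. Adjacent tissue of mouse 1323 was the lowest of all, and the fold change was 0.79 ± 0.32 in tumors and 0.59 ± 0.32 in adjacent tissue. Gpi1 had 619, 571, 612 and 613 CPM in tumors and 736, 994, 654 and 636 CPM in adjacent tissue, against 528, 636, 639.6 and 519.9 CPM in control tissue. Tumors lay within a narrow range inside that of control tissue, at 0.06 ± 0.18 in tumors and 0.38 ± 0.18 in adjacent tissue. Slc2a3 had 3.91 to 22.3 CPM in tumors and 4.56 to 10.6 CPM in adjacent tissue, against 4.16 to 8.59 CPM in control tissue, and Hk2 had fold changes of 0.73 ± 0.56 in tumors and -0.38 ± 0.55 in adjacent tissue; neither was called.

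Phosphofructokinase genes split by isoform. Pfkl had 212, 116, 288 and 207 CPM in tumors and 193, 128, 160.2 and 126 CPM in adjacent tissue, against 44.6, 44.1, 40.1 and 40.5 CPM in control tissue. All libraries of H2B/p53dIEC mice lay above control, at 2.27 ± 0.25 in tumors and 1.84 ± 0.25 in adjacent tissue. Pfkp had 173, 96.9, 56.4 and 119.5 CPM in tumors and 388, 256, 386 and 311 CPM in adjacent tissue, against 367, 466, 466 and 451 CPM in control tissue. Tumors were below both other groups, at -1.97 ± 0.29 in tumors and -0.38 ± 0.28 in adjacent tissue. Pfkfb4 had 35.1, 23.1, 9.66 and 44.7 CPM in tumors and 74.8, 214, 110.3 and 134 CPM in adjacent tissue, against 112, 148, 163 and 123 CPM in control tissue. Tumors were again lowest without overlap, at -2.27 ± 0.43 in tumors and -0.03 ± 0.41 in adjacent tissue. Pfkfb3 had 51.3, 106, 59.1 and 62.5 CPM in tumors and 55.2, 90.8, 48.7 and 29.2 CPM in adjacent tissue, against 27.6, 72.8, 21.4 and 66.1 CPM in control tissue. All 3 groups overlapped, at 0.49 ± 0.41 in tumors and 0.17 ± 0.41 in adjacent tissue. The tumors thus had more Pfkl and less Pfkp and Pfkfb4 than control tissue.

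Lower glycolysis genes were called higher in tumors in 6 of 8 cases and in adjacent tissue in 2. Aldoc had 70.8, 41.8, 112 and 76.6 CPM in tumors and 35.9, 34.4, 38.3 and 28.8 CPM in adjacent tissue, against 9.44, 8.54, 13.4 and 9.41 CPM in control tissue. The tumors were highest, adjacent tissue intermediate and control lowest, with no overlap, at 2.997 ± 0.27 in tumors and 1.86 ± 0.27 in adjacent tissue. Pgk1 had 251, 175, 185 and 168 CPM in tumors and 310.5, 366, 227 and 143 CPM in adjacent tissue, against 89.1, 105, 93.7 and 85.6 CPM in control tissue. Both groups were above control, at 1.06 ± 0.25 in tumors and 1.49 ± 0.26 in adjacent tissue. Aldoa had 1060, 873, 1345 and 899 CPM in tumors and 1014, 1007, 1028 and 702 CPM in adjacent tissue, against 547, 712, 543 and 559 CPM in control tissue. Adjacent tissue 1319 was below control 1316 and the tumors were above all control libraries, at 0.82 ± 0.21 in tumors and 0.67 ± 0.21 in adjacent tissue. Gapdh had 766, 666, 715 and 638 CPM in tumors and 661, 864, 643 and 458 CPM in adjacent tissue, against 336, 505, 458 and 351 CPM in control tissue. Tumors were above control and adjacent tissue overlapped it, at 0.76 ± 0.21 in tumors and 0.67 ± 0.21 in adjacent tissue. Eno1 had 514, 385, 564 and 419.6 CPM in tumors and 492, 556, 492 and 339 CPM in adjacent tissue, against 205, 352, 278 and 228 CPM in control tissue. The same held for Eno1, at 0.83 ± 0.22 in tumors and 0.82 ± 0.22 in adjacent tissue. Tpi1 had 865, 531, 1040 and 684 CPM in tumors and 751, 746, 778 and 541 CPM in adjacent tissue, against 564, 661, 608 and 559.8 CPM in control tissue. The groups overlapped, at 0.38 ± 0.22 in tumors and 0.24 ± 0.22 in adjacent tissue. Pgam1 had 1.32 ± 0.16 in tumors and 0.65 ± 0.16 in adjacent tissue, and Eno2 -0.57 ± 0.37 in tumors and 0.06 ± 0.37 in adjacent tissue.

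Of the genes of pyruvate fate, Pdk1 was called higher in tumors and Ldha in neither group. Pdk1 had 85.7, 60.5, 62.8 and 79.5 CPM in tumors and 87.6, 91.95, 62.5 and 44.7 CPM in adjacent tissue, against 39.7, 40.4, 53.5 and 42.5 CPM in control tissue. All tumors were above all control libraries, at 0.75 ± 0.22 in tumors and 0.74 ± 0.22 in adjacent tissue. Ldha had 1711, 1031, 1444 and 1364 CPM in tumors and 1860, 1494, 1650 and 1032 CPM in adjacent tissue, against 992, 1279, 1191 and 1052 CPM in control tissue. The groups overlapped, at 0.30 ± 0.23 in tumors and 0.42 ± 0.23 in adjacent tissue.

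**Figure D2:**
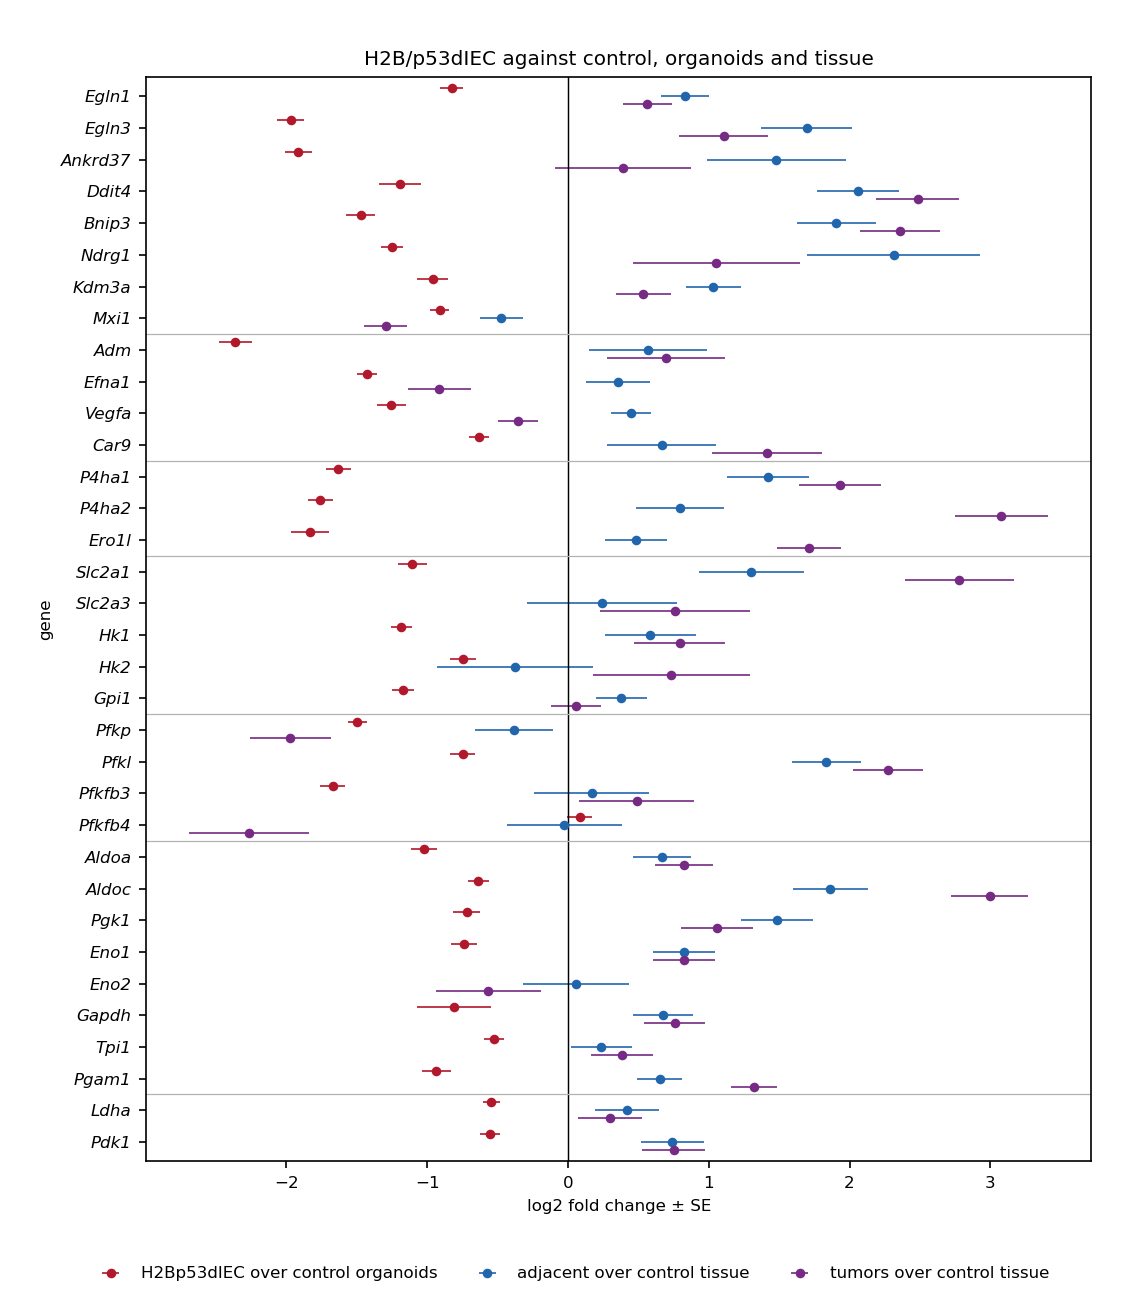
Log2 fold change with its standard error for each member, in H2Bp53dIEC against control organoids (red), adjacent against control tissue (blue) and tumors against control tissue (purple). Nearly all red points lie left of 0, and most blue and purple points right of it. Pfkp, Mxi1, Efna1 and Vegfa lie left of 0 in both organoids and tumors.

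Organoids and tissue, each against its own control, thus differed in sign for most members. Of the 32 tested in both, 28 had a negative fold change in H2Bp53dIEC organoids and a positive one in adjacent tissue, 9 of them called both ways. With tumors the numbers were 27 and 18, and Pfkp, Efna1 and Mxi1 were called lower in both. How often all genes showed these joint patterns was not counted. As a difference of fold changes, organoids minus adjacent tissue, 24 of 34 members were called lower and 0 higher, where 1.36% and 1.08% of all genes were. Organoids minus tumors gave 27 lower and 1 higher, where 15.4% and 14.7% of all genes were. The 34 include Slc2a3 and Eno2, which were too low to be tested in organoids alone and entered both differences through their counts in tissue. The differences furthest from 0 for adjacent tissue were Egln3 at -3.67 ± 0.41, Ndrg1 at -3.51 ± 0.75 and Ankrd37 at -3.46 ± 0.57. For tumors they were P4ha2 at -4.85 ± 0.40, Slc2a1 at -3.87 ± 0.49 and Bnip3 at -3.85 ± 0.35, and Pfkfb4 was the one higher, at 2.33 ± 0.49. This contrast is the one the set was chosen for, so nothing is read from these counts. Culture and the markers of cell types and gut region differ between the arms along with the tissue.

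The H2BdIEC genotype, without the p53 deletion, was compared with control in organoids and crypts. In H2BdIEC organoids all 32 tested members had a negative log2 fold change against control organoids, with a median of -0.35 beside -0.004 over all genes. Of these, 15 were called lower and 0 higher, where 1.97% of all genes were called lower and 2.08% higher. All H2BdIEC libraries lay below all control libraries in 22 members, where 10.6% of all genes did. These 6 libraries are also the ones that H2Bp53dIEC organoids were set against when the set was chosen, so these values are not independent of that choice and are given without p-values. The count was 7 without control organoid B, 4 when only these 2 groups were fitted, and 10 of 22 among members without near-identical copies.

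The per-library values are those given above for organoids. Adm had a log2 fold change of -0.95 ± 0.11, Hk1 of -0.59 ± 0.07 and Gpi1 of -0.54 ± 0.08, and these 3 were called lower under every one of 15 alternatives. The other secreted factors were lower too, Car9 at -0.44 ± 0.07, Efna1 at -0.39 ± 0.07 and Vegfa at -0.52 ± 0.10. In lower glycolysis, Aldoa (-0.53 ± 0.09), Eno1 (-0.52 ± 0.09), Pgk1 (-0.54 ± 0.10) and Aldoc (-0.34 ± 0.07) were called lower. P4ha1, P4ha2, Pfkp, Ankrd37 and Mxi1 completed the 15, with log2 fold changes between -0.44 and -0.32. The prolyl hydroxylases Egln1 (-0.14 ± 0.08) and Egln3 (-0.36 ± 0.09) were not called. Gapdh read alone gave -1.14 ± 0.29 and was not called, and gave -0.29 with its copies added, which was called lower.

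In crypts, which are separate libraries, most fold changes were positive. Of 32 members tested, 4 rose in H2BdIEC crypts and 1 fell, where 5.16% and 4.87% of all genes did. The median log2 fold change of the members was 0.25, beside -0.005 over all genes, with 21 above 0 and 11 below. Libraries did not overlap in 5 members that were higher and 1 that was lower, where 8.54% and 10.3% of all genes did not. Gapdh had 481, 414, 580 and 582 CPM in H2BdIEC crypts, against 267, 346, 281 and 328 CPM in control crypts. The groups did not overlap, and Gapdh rose by 0.75 ± 0.15 (log2, edgeR adjusted p = 0.0127). Pfkl had 71.3, 51.8, 63.1 and 79.2 CPM in H2BdIEC crypts, against 38.4, 42.7, 43.3 and 48.6 CPM in control crypts. All H2BdIEC libraries were higher, at 0.62 ± 0.13 (edgeR adjusted p = 0.0176). Aldoc had 12.6, 8.54, 11.03 and 16.3 CPM in H2BdIEC crypts, against 4.31, 6.48, 4.63 and 8.42 CPM in control crypts. The rise was 1.03 ± 0.25, with the lowest H2BdIEC library just above the highest control (edgeR adjusted p = 0.0276). Eno1 had 424, 404, 569 and 503 CPM in H2BdIEC crypts, against 288, 381, 272 and 339 CPM in control crypts. Eno1 rose by 0.57 ± 0.15 without overlap (edgeR adjusted p = 0.0394). Pdk1 had 45.2, 36.7, 50.2 and 43.6 CPM in H2BdIEC crypts, against 59.6, 54.8, 60.1 and 61.3 CPM in control crypts. This kinase fell, at -0.42 ± 0.10, again without overlap (edgeR adjusted p = 0.0291). None of the 5 calls held under every alternative. The number that rose was 1 without control crypt 1 or H2BdIEC crypt 4, 0 without control crypt 3, 7 without control crypt 2 and 8 with DESeq2. Pdk1 lost its call without control crypt 1, control crypt 3, H2BdIEC crypt 2 or H2BdIEC crypt 4.

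None of the genes of oxygen sensing and signalling and of the secreted factors passed the test in crypts. Ankrd37 had 3.52, 5.39, 10.6 and 3.96 CPM in H2BdIEC crypts, against 2.91, 3.10, 3.15 and 3.52 CPM in control crypts. The lowest H2BdIEC library was level with the highest control library and H2BdIEC crypt 3 stood above the rest, at 0.89 ± 0.32 (edgeR adjusted p = 0.0952). Bnip3 had 9.59, 12.1, 15.9 and 18.1 CPM in H2BdIEC crypts, against 6.31, 3.49, 4.28 and 14.4 CPM in control crypts. Control crypt 4 lay inside the H2BdIEC range, at 0.97 ± 0.44 (edgeR adjusted p = 0.19). Vegfa had 70.2, 115, 116 and 106 CPM in H2BdIEC crypts, against 52.7, 89.04, 44.7 and 54.99 CPM in control crypts. Control crypt 2 overlapped the H2BdIEC libraries, at 0.75 ± 0.23 (edgeR adjusted p = 0.0656). Car9 had 91.7, 62.5, 81.01 and 77.6 CPM in H2BdIEC crypts, against 57.6, 56.5, 68.7 and 56.3 CPM in control crypts. Overlap was limited to control crypt 3 and H2BdIEC crypt 2, at 0.39 ± 0.12 (edgeR adjusted p = 0.0667). Egln3 had 21.8, 28.3, 28.96 and 31.6 CPM in H2BdIEC crypts, against 12.8, 17.3, 25.2 and 63.8 CPM in control crypts. The control libraries spanned the H2BdIEC range, at -0.10 ± 0.49. Ddit4 had 16.4, 17.1, 16.6 and 20.1 CPM in H2BdIEC crypts, against 25.5, 27.2, 33.6 and 17.97 CPM in control crypts. Control crypt 4 overlapped and the others were higher than all H2BdIEC libraries, at -0.57 ± 0.17 (edgeR adjusted p = 0.055). Ndrg1 had 62.9, 61.4, 40.8 and 82.5 CPM in H2BdIEC crypts, against 87.2, 59.3, 110.2 and 119 CPM in control crypts. The groups overlapped, at -0.60 ± 0.25. Adm had 0.813, 0.899, 1.68 and 0.887 CPM in H2BdIEC crypts, against 0.561, 0.828, 0.493 and 0.963 CPM in control crypts. Levels were low and the groups overlapped, at 0.59 ± 0.35.

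The remaining members that were followed by library did not pass the test in crypts either. Efna1 had 29.4, 38.04, 58.5 and 37.7 CPM in H2BdIEC crypts, against 37.4, 48.6, 43.1 and 44.02 CPM in control crypts. H2BdIEC libraries spanned the control range, at -0.08 ± 0.18. Ero1l had 70.97, 74.3, 100 and 86.5 CPM in H2BdIEC crypts, against 52.01, 72.3, 55.5 and 73.1 CPM in control crypts. The groups overlapped, at 0.39 ± 0.14 (edgeR adjusted p = 0.106). P4ha1 had 2.82, 2.77, 5.42 and 2.78 CPM in H2BdIEC crypts, against 3.61, 2.27, 2.62 and 5.28 CPM in control crypts. Levels were low and overlapping, at 0.003 ± 0.32. Slc2a1 had 8.45, 8.31, 10.6 and 9.34 CPM in H2BdIEC crypts, against 13.6, 10.6, 11.4 and 12.8 CPM in control crypts. H2BdIEC crypt 3 was level with control crypt 2 and the other H2BdIEC libraries were lower, at -0.40 ± 0.13 (edgeR adjusted p = 0.0777). Hk1 had 8.61, 9.59, 10.1 and 9.05 CPM in H2BdIEC crypts, against 12.4, 6.98, 10.1 and 9.84 CPM in control crypts. The fold change was -0.08 ± 0.17, within the spread. Gpi1 had 437, 386, 505 and 501 CPM in H2BdIEC crypts, against 335, 408, 341 and 405 CPM in control crypts. Overlap was partial, at 0.30 ± 0.13. Pfkp had 282, 342, 424 and 355 CPM in H2BdIEC crypts, against 297, 351, 274 and 287 CPM in control crypts. The fold change was 0.22 ± 0.14, with overlap. Pfkfb3 had 41.2, 64.5, 91.8 and 58.96 CPM in H2BdIEC crypts, against 21.04, 72.1, 19.03 and 30.2 CPM in control crypts. Control crypt 2 lay among the H2BdIEC libraries, at 0.85 ± 0.48. Pfkfb4 had 99.4, 137, 125 and 108 CPM in H2BdIEC crypts, against 93.4, 123, 99 and 93.98 CPM in control crypts. The groups overlapped, at 0.20 ± 0.13. Aldoa had 259, 222, 349 and 307 CPM in H2BdIEC crypts, against 257, 265, 284 and 391 CPM in control crypts. Control crypt 4 was the highest of all 8, and the fold change was -0.07 ± 0.17. Tpi1 had 538, 516, 661 and 669.8 CPM in H2BdIEC crypts, against 418, 559.9, 432 and 584 CPM in control crypts. The fold change was 0.26 ± 0.15. Pgk1 had 177, 174, 254 and 227 CPM in H2BdIEC crypts, against 159.8, 181, 155 and 214 CPM in control crypts. It was 0.23 ± 0.15 for this enzyme, with overlap. Ldha had 946, 1009, 1388 and 1211 CPM in H2BdIEC crypts, against 806, 1010, 839.8 and 1203 CPM in control crypts. Ldha overlapped too, at 0.24 ± 0.18. P4ha2 and Eno2 were too low to test, with at most 0.504 and 0.140 CPM. Of the others, Mxi1 had 0.64 ± 0.20 (edgeR adjusted p = 0.0677), Pgam1 0.26 ± 0.15, Hk2 -0.15 ± 0.20, Slc2a3 0.45 ± 0.40, Egln1 -0.09 ± 0.11 and Kdm3a -0.07 ± 0.10.

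Some markers of cell types and gut region differed by genotype in crypts, and the mitochondrial share differed with overlap at control crypt 4. The mitochondrial share of counts was 9.3, 15.7, 10.99 and 11.57% in H2BdIEC crypts, against 4.33, 4.42, 5.09 and 10.39% in control crypts. Proximal small intestine markers summed to 13390, 15860, 12810 and 15680 CPM in H2BdIEC crypts, against 5758, 12720, 6877 and 8895 CPM in control crypts, and stem and transit cell markers to 836 to 1200 CPM, against 1538 to 1806 CPM. Enterocyte markers summed to 30980 to 42050 CPM, against 19850 to 29690 CPM. The proximal and enterocyte lists share Fabp1, Apoa4 and Lct, so these sums are not separate measures. Distal small intestine markers overlapped, with sums of 329.8 to 804.3 CPM in H2BdIEC crypts, against 466.1 to 1742 CPM in control crypts. The part of these markers and of the mitochondrial share in the member values was not tested.

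**Figure D3:**
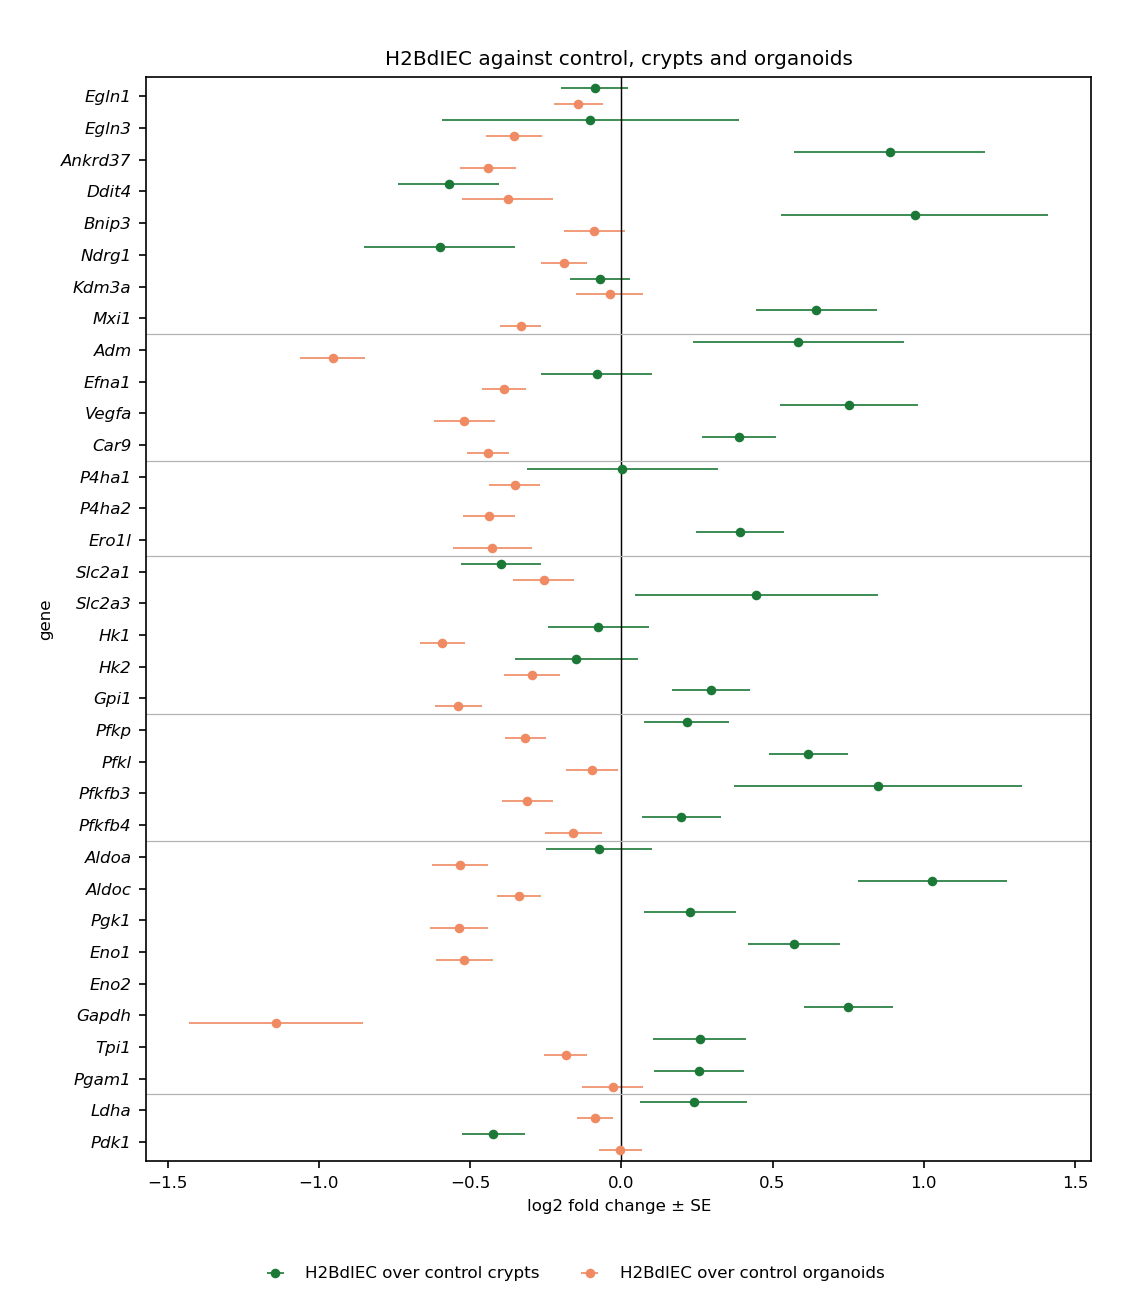
Log2 fold change with its standard error for each member, in H2BdIEC against control crypts (green) and in H2BdIEC against control organoids (orange). All orange points lie left of 0, whereas 21 of 32 green points lie right of it; the points are furthest apart for Gapdh, Adm and Aldoc.

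The difference between both effects was taken as the H2BdIEC fold change in crypts minus that in organoids. Its organoid arm uses the H2BdIEC and control organoids that entered the choice of the genes, for which low values in organoids counted, so the differences are not independent of that choice and are given without p-values. Of 33 members, 11 were called higher in crypts and 0 lower, where 2.3% and 1.72% of all genes were, and nothing is read from this count. P4ha2, too low to be tested in crypts alone, entered through its counts in organoids, and Slc2a3 through its counts in crypts. The members' median difference was 0.48, beside 0.02 over all genes. Among secreted factors, the difference was 1.56 ± 0.33 for Adm, 1.29 ± 0.30 for Vegfa and 0.85 ± 0.17 for Car9. In lower glycolysis it was 1.92 ± 0.34 for Gapdh, or 1.03 with its copies added, 1.39 ± 0.29 for Aldoc, 1.11 ± 0.21 for Eno1 and 0.79 ± 0.21 for Pgk1. Gpi1 (0.85 ± 0.18), Mxi1 (0.99 ± 0.25), Ero1l (0.84 ± 0.22) and Pfkl (0.73 ± 0.19) completed the 11. Car9, Eno1 and Gapdh were called under all 18 alternatives. The count was 3 without control organoid B, 6 without control crypt 1, H2BdIEC organoid B or control organoid A, and 7 without control crypt 3, H2BdIEC crypt 4, H2BdIEC organoid A or C, or control organoid C. The arms also differ in preparation and annotation release, and crypts and organoids were not paired.

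Other genes of the pathway were counted in lists chosen together with the members. Of 36 other targets of hypoxia-inducible factors, 24 of 31 tested were called lower and 1 higher in H2Bp53dIEC against control organoids, with a median of -0.58, where 16.6% and 16.7% of all genes were. Against H2BdIEC organoids these were 18 and 1, where 15.4% and 13.9% of all genes were. Nrn1, a neuritin that promotes neurite growth, averaged 17.01 ± 1.88 CPM in H2Bp53dIEC organoids and 82.4 ± 17.2 CPM in H2BdIEC organoids (log2 -2.26 ± 0.16), and Ak4, a mitochondrial adenylate kinase, 102 ± 5.60 CPM and 196 ± 8.83 CPM (log2 -0.94 ± 0.07). The transcriptional repressor Bhlhe40 (-0.80 ± 0.07) and the mitochondrial protein Fam162a (-1.01 ± 0.08) were also lower. In adjacent tissue 4 of 36 were called higher, among them Flt1, a receptor of Vegfa, at 1.69 ± 0.30, and 0 lower, beside 0.792% and 0.277% of all genes. The endothelial marker sum, given above, was also higher in all adjacent tissue than in all control tissue. Its part in the Flt1 value was not tested. In tumors 19 were called higher and 7 lower against control tissue, among them the cytokine Mif (3.33 ± 0.25) and, lower, Insig2 (-1.80 ± 0.20), a regulator of sterol synthesis. Over all genes 28.6% were higher and 26.1% lower there, so the count that was lower is no higher than over all genes. In H2BdIEC organoids 3 of 31 were called lower and 1 higher, beside 1.97% and 2.08% of all genes. Bhlhe40 was lower there (-0.42 ± 0.07) and the lysyl hydroxylase Plod2 higher (1.03 ± 0.17), given without p-values as for the members. In H2BdIEC crypts 1 of 26 rose, the lipase inhibitor Angptl4 (1.18 ± 0.31, edgeR adjusted p = 0.0492), and 2 fell, with the transferrin receptor Tfrc first (-0.87 ± 0.17, edgeR adjusted p = 0.0133). With 5.16% and 4.87% of all genes called higher and lower, these crypt counts are near the share of all genes.

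The 11 regulators of the pathway did not move as a group. In H2Bp53dIEC organoids 3 were called higher and 2 lower against control organoids, beside 16.7% and 16.6% of all genes. Hif3a, an alpha subunit with inhibitory forms, averaged 18.7 ± 1.65 CPM in H2Bp53dIEC organoids and 41.4 ± 4.86 CPM in H2BdIEC organoids (log2 -1.15 ± 0.11), and in adjacent tissue it averaged 21.4 ± 16.5 CPM, against 2.46 ± 0.542 CPM in control tissue (log2 3.14 ± 0.47). In tumors regulators were called in both directions against control tissue, where 28.6% of all genes were higher and 26.1% lower. Hif1a averaged 272 ± 137 CPM in tumors, against 41.1 ± 5.42 CPM in control tissue (log2 2.70 ± 0.47). Ep300 (log2 -1.13 ± 0.14) and Hif1an (log2 -0.664 ± 0.125) were lower in tumors than in control tissue. Arnt2, a partner of the alpha subunits, rose in H2BdIEC crypts, with 12.6 ± 1.78 CPM against 3.79 ± 1.06 CPM in control crypts (log2 1.74 ± 0.20, edgeR adjusted p = 0.00127). It was higher as well in H2BdIEC organoids, with 20.5 ± 1.39 CPM against 8.96 ± 0.174 CPM in control organoids (log2 1.19 ± 0.10). Its fold change was 1.85 ± 0.09 in H2Bp53dIEC organoids, 2.95 ± 0.29 in tumors and 1.83 ± 0.28 in adjacent tissue, each against its control. Epas1, the alpha subunit prominent in endothelium and gut epithelium, rose in H2BdIEC crypts (0.89 ± 0.21, edgeR adjusted p = 0.0305). Against control organoids Epas1 was called lower in H2Bp53dIEC organoids (-0.31 ± 0.09) and was not called in H2BdIEC organoids (-0.23 ± 0.09).

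Of 29 other genes of glycolysis and gluconeogenesis, 12 of 27 were called lower and 3 higher in H2Bp53dIEC against control organoids, with a median of -0.29, where 16.6% and 16.7% of all genes were, and the share that was higher is below that of all genes. The hexokinase-like Hkdc1 (-1.06 ± 0.09), the phosphoglucomutase Pgm1 (-0.80 ± 0.07) and the lactate exporter Slc16a3 (-1.11 ± 0.12) were among those lower. Slc16a3 was higher in tumors (3.13 ± 0.35) and in adjacent tissue (2.33 ± 0.34) than in control tissue. In H2BdIEC crypts 5 of 26 rose and 2 fell, beside 5.16% and 4.87% of all genes, and the share that fell is near that of all genes. Pkm, the pyruvate kinase of most tissues, rose there with 1025 ± 144 CPM against 658 ± 96.6 CPM in control crypts (0.64 ± 0.15, edgeR adjusted p = 0.0272). In H2BdIEC organoids Pkm was lower, with 1445 ± 179 CPM against 1869 ± 99.1 CPM in control organoids (-0.37 ± 0.09). The phosphoenolpyruvate carboxykinase Pck2 fell in H2BdIEC crypts (-0.89 ± 0.16, edgeR adjusted p = 0.00862).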

How the data were processed

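Libraries were made with a stranded mRNA kit, per the labels' protocols. The authors trimmed with cutadapt 1.5 and 1.9 and Trimmomatic 0.36, aligned with TopHat2 2.0.14 to GRCm38 and counted with HTSeq, per the submitters' processing notes, which give no role or order. The deposited values are whole read counts per gene, 1 file per library, with 47729 gene IDs in crypts, 49585 in tissue and 52550 in organoids, so annotation releases differ between sets. Symbols and positions came from GENCODE M21 for the same build. Counts were scaled by TMM within each set. For differences between sets, the sets compared were joined on their shared gene IDs, then scaled and fitted together. Crypts minus organoids left out the H2Bp53dIEC organoids. All other fits used all groups of the set together. Tests used edgeR 4.0.16 (quasi-likelihood, robust, filterByExpr) in R 4.3.3. Benjamini-Hochberg adjustment ran over all genes tested in the contrast, with a threshold of 0.05. DESeq2 1.42.0, its size factors, no low-count filter, each library left out, only the groups compared, a replicate block, and members summed with near-identical copies (blastn 2.17.0, at least 90% identity over at least 50% of the coding sequence, added after their counts were seen) were the alternatives. The edgeR code was tested on simulated data. The members and all lists were chosen with earlier results of these data known. Values by library are given for the 2 most abundant members per role, the 6 highest and 6 lowest fold changes of H2Bp53dIEC against H2BdIEC organoids (mean of at least 1 CPM), and up to 10 called members in each H2BdIEC contrast. Genes of other lists are named from the called ones with the 4 smallest p per list and contrast. Tumor and adjacent libraries carry the same mouse numbers and so are paired by animal; their deviations from the group means correlated at 0.156, -0.164, 0.12 and 0.064. For organoids, the calls rest on the variation among the libraries at hand, possibly technical.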

Additional observations from a re-analysis of the deposited data

Results flagged for a closer look

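In 12 of 170 groups of 4 libraries examined over the members, a single library lay far from the other 3 by Dixon's test at the 95% level, which chance gives in about 1 in 20 groups. In adjacent tissue, Ndrg1 had 1871 CPM in mouse 1323, and the other 3 had 229.9 to 325; P4ha2 had 6.24 CPM in the same mouse, the lowest. Mouse 1319 was lowest for Aldoa (702 CPM) and Tpi1 (541 CPM). Among tumors, that of mouse 1323 was highest for Slc2a3 (22.3 CPM) and lowest for Gpi1 (571 CPM). Control tissue 1320, the library with 401365 counts, was highest for Ankrd37 (24.1 CPM), control 1316 highest for Aldoa (712 CPM) and control 1315 lowest for Pfkp (367 CPM). H2BdIEC crypt 3 was highest for Adm (1.68 CPM) and P4ha1 (5.42 CPM), and control crypt 3 highest for Car9 (68.7 CPM).

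In 11 members the fold change of H2BdIEC against control was called higher in crypts than in organoids. The organoid arm uses control and H2BdIEC organoids that entered the choice of the genes, so these differences are not independent of it. The log2 difference, crypts minus organoids, was 1.92 for Gapdh, 1.56 for Adm, 1.39 for Aldoc, 1.29 for Vegfa, 1.11 for Eno1 and 0.99 for Mxi1. It was 0.85 for Gpi1, 0.85 for Car9, 0.84 for Ero1l, 0.79 for Pgk1 and 0.73 for Pfkl. In each of these the organoid fold change was negative and the crypt fold change positive.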

How the results depend on the processing

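No count or called value reversed under the alternatives, but Gapdh in H2Bp53dIEC against H2BdIEC organoids, 0.33 and not called when read alone, was -0.41 and called lower when summed with its near-identical copies. In H2BdIEC crypts, members called higher numbered 4, 8 with DESeq2 and 0 to 7 with 1 library left out, and members called lower numbered 1, 2 with DESeq2, 2 without the low-count filter and 0 to 2 with 1 library left out. In H2BdIEC organoids, members called lower numbered 15, 4 with only the 2 groups compared, 6 with the letter as a replicate block and 7 to 18 with 1 library left out. The letters did not pair the organoid libraries: deviations from the group means correlated at 0.001, -0.178 and 0.102 for A, B and C, and only C correlated best with its own letter. For crypts minus organoids, members higher numbered 11 and 3 to 13 with 1 library left out, and members lower 0, and 1 with DESeq2. For H2Bp53dIEC against H2BdIEC organoids, members higher numbered 0, 1 with only the 2 groups compared and 0 to 1 with 1 library left out. In adjacent tissue, members higher numbered 9, 16 with DESeq2 and 0 to 9 with 1 library left out. For organoids minus tumors, members higher numbered 1 and 1 to 2 with 1 library left out. The causes were not tested. With mouse as a replicate block, tumors against adjacent tissue gave 6 higher and 6 lower, beside 5 and 6. DESeq2 size factors moved the median of all genes by at most 0.082 (log2). Counts in H2Bp53dIEC organoids against control stayed at 30 to 31 lower, and tumors against control tissue at 17 to 20 higher. Depth limits Adm in crypts, the shallow control tissue 1320, and Slc2a3 and Eno2 in organoids.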

Other observations

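Genes of pyruvate dehydrogenase and the TCA cycle, which oxidise what glycolysis delivers, were lower in many cases in H2Bp53dIEC organoids and in tumors. In H2Bp53dIEC organoids 17 of 21 were called lower and 0 higher against H2BdIEC organoids, and 14 and 1 against control organoids, with medians of -0.25 and -0.30. Over all genes 15.4% and 16.6% were called lower in these contrasts, and 13.9% and 16.7% higher. Dlat, a core subunit of pyruvate dehydrogenase, averaged 138 ± 2.11 CPM in H2Bp53dIEC and 194 ± 15.3 CPM in H2BdIEC organoids (SD, n = 3 each; log2 -0.49 ± 0.08), and the malate dehydrogenase Mdh2 863 ± 5.91 CPM and 1110 ± 29.7 CPM (log2 -0.36 ± 0.07). In tumors 12 of 21 were called lower and 0 higher against control tissue, with a median of -0.60, where 26.1% and 28.6% of all genes were. Ogdh, a subunit of oxoglutarate dehydrogenase, averaged 221 ± 65.2 CPM in tumors and 848 ± 77.2 CPM in control tissue (SD, n = 4 each; log2 -1.94 ± 0.22), and Cs, citrate synthase, 300.1 ± 111 CPM and 948 ± 179.7 CPM (log2 -1.66 ± 0.28). In adjacent tissue 0 of 21 were called, where 0.792% of all genes were higher and 0.277% lower, with a median of -0.18. H2BdIEC crypts had 1 higher, Dlst (0.49 ± 0.14, edgeR adjusted p = 0.0452), and 1 lower, Suclg2 (-0.45 ± 0.11, edgeR adjusted p = 0.0295), and in H2BdIEC organoids 0 of 21 passed. The crypt counts are near the shares of all genes, 5.16% higher and 4.87% lower, and in organoids 2.08% and 1.97% of all genes passed.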
